A study of Drosophila melanogaster with 31 samples.

Results

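Chordotonal (Ch) neurons are stretch receptors of the insect body wall and joints. Their precursors are picked out from the ectoderm by the proneural gene *ato*, which encodes a basic helix-loop-helix transcription factor, and the same gene founds sense organs of the head and the photoreceptors of the larval eye. After selection the precursors divide, and their daughters form the ciliated neuron and its support cells, while the mesoderm beside them is patterned and begins to form muscle.

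The question here is how the lead of *ato*-reporter cells over the remaining cells of the embryo changed over 1 step of that sequence. Cells were sorted from dissociated *Drosophila melanogaster* embryos, and their RNA was hybridised to Affymetrix *Drosophila* 2.0 arrays. The comparison rests on 16 of the 31 arrays of the series. They form 4 groups of 4 arrays: GFP+ cells at t2, GFP− cells at t2, GFP+ cells at t1 and GFP− cells at t1. All 16 come from embryos of the genotype atoGFP.7;w118, which carried the wild-type *ato* gene. Embryos at t2 were aged 6.75 to 7.75 h after egg laying and those at t1 were aged 5.75 to 6.75 h, as equivalents at 25C of embryos that matured at 18C. The 11983 genes measured by a probe set naming them alone were all compared. For each one the enrichment ratio is the level in GFP+ cells over that in GFP− cells at 1 time, and the change of ratio is the ratio at t2 over the ratio at t1. The same model also held 8 arrays of *ato* mutant cells at t1 (genotype atoGFP.7;ato(mutant);w118) and 7 arrays of wild-type cells at t3, aged 7.75 to 8.75 h. These arrays enter the shared estimate of spread behind every SE and adjusted p. Their levels are read below only as separate arrays.

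Several features limit these groups as a model of Ch precursors. The reporter is 1 transgenic line, atoGFP.7, in which an upstream fragment of *ato* drives GFP, and it also marks head sense organs and the larval eye. GFP− cells are everything else that was sorted, so a ratio can change because either population changed. RNA came from pooled sorted cells, and a smaller number of cells of a type cannot be told apart from less RNA per cell. The methods describe the 4 arrays of a group as independent samples. The labels of 1 array conflict: GFP− replicate 4 of t2 is GFP− by its title, which was followed, and GFP+ by its source label.

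*ato* itself parted the GFP+ from the GFP− arrays at both times. Its log2 intensities were 12.33, 12.43, 12.65 and 12.56 in GFP+ cells at t2, against 8.55, 8.58, 8.92 and 8.70 in GFP− cells. At t1 they were 12.41, 12.37, 12.28 and 12.20 in GFP+ cells, against 8.59, 8.81, 8.74 and 8.58 in GFP− cells. The GFP+ arrays lay above every GFP− array at each time, the array with conflicting labels among the GFP− arrays. The change of ratio was 0.17 on the log2 scale (SE 0.23, limma adjusted p = 0.92).

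Between t1 and t2 the ratio changed for few genes, and more often through the GFP− cells than through the GFP+ cells. At limits of 1.5-fold and an adjusted p of 0.01, the ratio was higher at t2 for 24 genes, which is 0.2% of all genes measured, and lower for 36 genes, or 0.3%. A higher ratio can be a gain of enrichment or a shrinking depletion, so the genes were parted by their group means. Of the 24, 10 had GFP+ above GFP− at t2, and the other 14 were still below GFP− at t2 and only less so. Of the 36, 14 had GFP+ above GFP− at t1 and lost some or all of that lead, whereas 22 had a GFP+ mean already below GFP− at t1 and a lower ratio at t2. Depletion at t1 passed the limits for 11 of those 22. Without the GFP− array of conflicting labels the counts were 20 and 31. A fit of the 16 arrays alone gave 64 and 76, and a test of the change against 1.5-fold gave 2 and 1. By group means alone, the lead changed sign for 7 genes. In 3 of them GFP+ was below GFP− at t1 and above it at t2, and in 4 the reverse held. Some of these log2 ratios were small: 0.016 for *C15* at t2, and −0.08 for *ths* and 0.02 for *CG42342* at t1. *toy* turned by only 1 of its 3 probe sets.

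**Figure D1:**
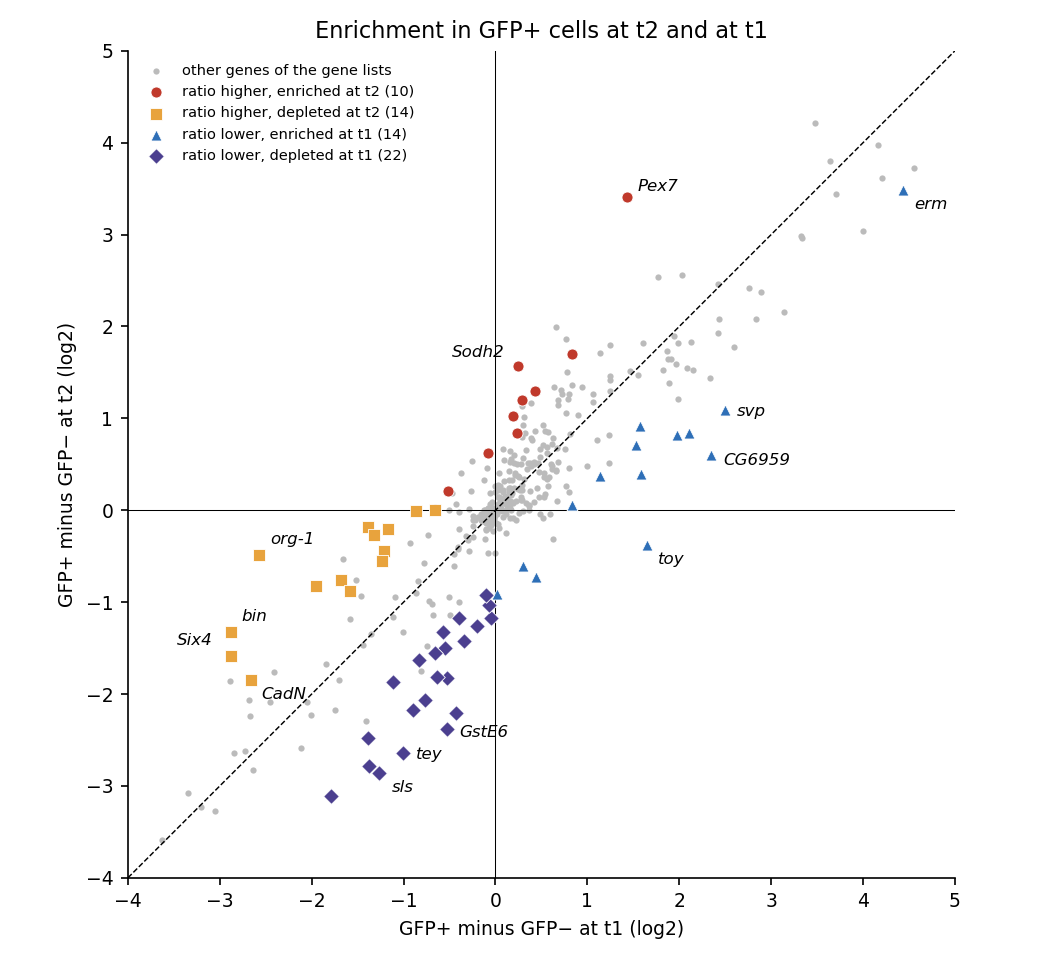
Enrichment ratio (GFP+ minus GFP− group means, log2) at t2 on the vertical axis against t1 on the horizontal axis, for the 60 called genes by class and, in grey, the other genes of the gene lists. Points above the diagonal had a higher ratio at t2, and the horizontal and vertical lines at 0 part enrichment from depletion.

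Because the change of ratio equals the change of GFP+ cells minus the change of GFP− cells, each gene was also read in the 2 populations apart. Past the same limits, 31 of the 60 genes changed in GFP− cells alone, 12 in GFP+ cells alone, 14 in both and 3 in neither. The change was larger in GFP− cells for 43 genes and larger in GFP+ cells for 17. For comparison, among all genes 5.48% were higher and 12.1% lower at t2 in GFP− cells, and 4.07% were higher and 10.2% lower in GFP+ cells. Both populations enter the change of ratio, so these counts describe the 60 genes and test nothing.

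**Figure D2:**
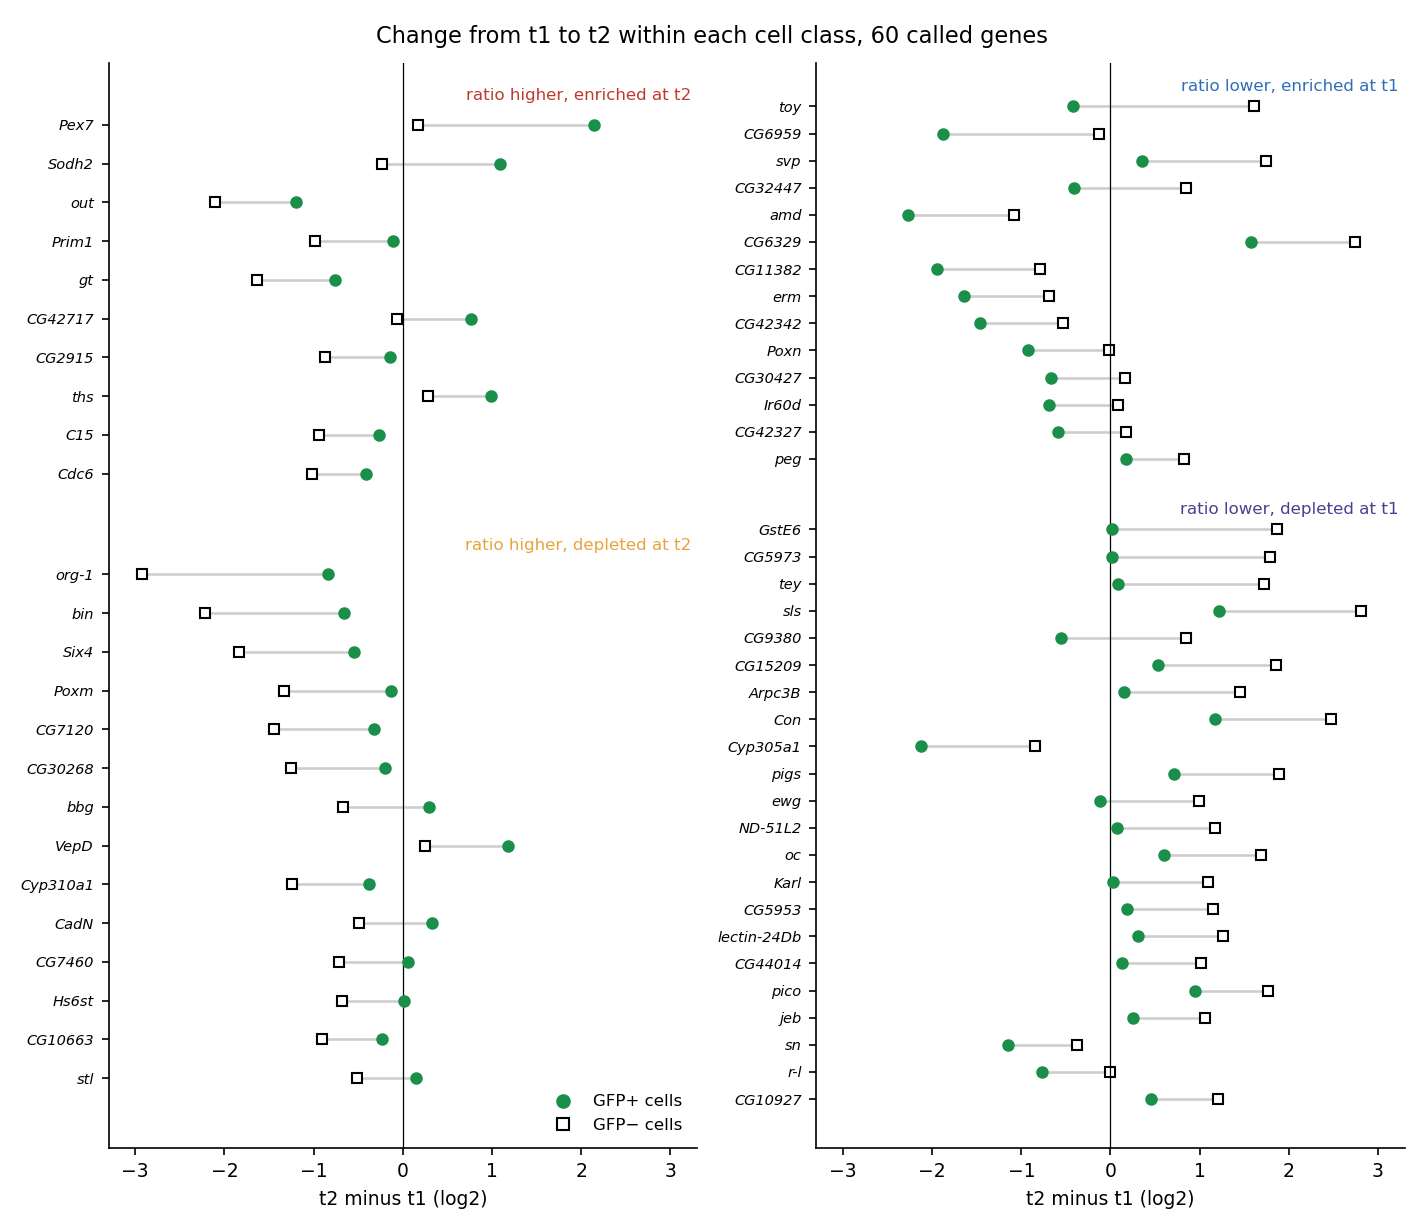
Change of level between t1 and t2 (t2 minus t1, log2) in GFP+ cells and in GFP− cells for each of the 60 called genes, grouped by class. In the 14 genes still depleted at t2 the GFP− level was lower at t2 for 13, and in the 22 genes already depleted at t1 the GFP− level was higher at t2 for 19.

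The 10 genes with a higher ratio that were enriched at t2 split evenly in how they came to be so. GFP+ cells alone changed past the limits for 4 of them, GFP− cells alone for 4, and both for 2. Their median ratio was 1.11 at t2, against 0.24 at t1, on the log2 scale. Enrichment passed the limits for 8 at t2, where 3.35% of all genes did, and for 2 at t1, where 2.5% did. These counts follow from how the genes were grouped.

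*Pex7*, which encodes an import receptor of the peroxisome, had the largest gain. It measured 8.10, 8.40, 8.58 and 8.60 in GFP+ cells at t2, against 4.87, 5.06, 5.09 and 5.04 in GFP− cells. At t1 the values were 5.82, 6.4, 6.33 and 6.55 in GFP+ cells, against 5.08, 5.00, 4.62 and 4.69 in GFP− cells. GFP− arrays of the 2 times overlapped, while every GFP+ array at t2 exceeded every one at t1. The ratio was 10.6-fold at t2 and 2.70-fold at t1, a 3.93-fold change (log2 1.97, SE 0.31, adjusted p = 0.00038). *Sodh2*, a sorbitol dehydrogenase, gave 6.80, 7.19, 7.23 and 7.16 in GFP+ cells at t2, against 5.51, 5.39, 5.59 and 5.58 in GFP− cells, and the groups did not overlap. At t1 they did, with 5.98, 6.15, 5.88 and 5.99 in GFP+ cells, against 5.95, 5.81, 5.80 and 5.46 in GFP− cells. Its change of ratio was 2.51-fold (log2 1.33, SE 0.20, adjusted p = 0.00024), with the GFP+ level 1.10 higher and the GFP− level lower by 0.23 at t2.

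A pair of further genes gained in GFP+ cells from low levels. *CG42717* read 5.28, 5.24, 5.21 and 5.18 in GFP+ cells at t2, against 4.41, 4.55, 4.71 and 4.21 at t1, while its GFP− arrays overlapped between the times. *ths*, which encodes a ligand of the FGF receptor Heartless, read 6.15, 6.38, 6.35 and 6.39 in GFP+ cells at t2, against 5.63, 5.52, 5.93 and 5.70 in GFP− cells. Its GFP+ and GFP− arrays overlapped at t1, at 5.24, 5.54, 5.21 and 5.33 in GFP+ cells, against 5.47, 5.35, 5.50 and 5.32 in GFP− cells, and the change of ratio was 0.70 (SE 0.14, adjusted p = 0.0074).

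The remaining gains came with a fall in both populations, or in GFP− cells, that was steeper outside the GFP+ sort. *gt*, a gap gene of early segmentation, read 8.83, 8.94, 9.46 and 9.07 in GFP+ cells at t2, against 7.30, 7.44, 7.48 and 7.30 in GFP− cells. At t1 it read 9.87, 9.98, 9.78 and 9.73 in GFP+ cells, against 9.01, 9.0, 9.06 and 8.97 in GFP− cells. Levels at t2 were below those at t1 on every array of both populations, by 0.76 in GFP+ cells and by 1.63 in GFP− cells in the means, and the ratio was 1.82-fold higher at t2 (log2 0.87, SE 0.15, adjusted p = 0.00094). A second probe set of *gt* gave a change of only 0.15. *out*, a putative monocarboxylate transporter, fell by 1.19 in GFP+ cells and by 2.11 in GFP− cells, so that its ratio changed by 0.92 (SE 0.14, adjusted p = 0.00037). *CG2915* had a ratio of 0.21 at t2, against −0.52 at t1, and its GFP− level was lower by 0.88 at t2.

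2 genes of DNA replication belong to the same class, *Prim1*, the catalytic primase subunit, and *Cdc6*, which helps load the replicative helicase at origins. *Prim1* measured 9.78, 9.93, 10.26 and 10.05 in GFP+ cells at t2, against 8.53, 8.51, 8.91 and 8.89 in GFP− cells. At t1 it measured 10.06, 10.09, 10.20 and 10.11 in GFP+ cells, against 9.66, 9.77, 9.68 and 9.63 in GFP− cells. GFP+ arrays overlapped between the times and GFP− arrays were all lower at t2, giving a change of ratio of 0.87 (SE 0.18, adjusted p = 0.0077). *Cdc6* had a GFP+ mean lower by 0.41 and a GFP− mean lower by 1.02 at t2, with no overlap between the times in either population, and a change of ratio of 0.61 (SE 0.11, adjusted p = 0.0028). In this class 4 of the 10 genes lost the call when some single array was left out. For *Prim1* this happened with 13 of the 16 arrays, with a highest adjusted p of 0.0275, for *ths* with 12 (0.0257), for *CG42717* with 5 (0.0139) and for *Cdc6* with 4 (0.011).

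The DNA replication list as a whole moved the same way as its 2 called members. All 20 members measured had a change of ratio above 0, with a median of 0.405, where the median over all genes was 0.002 and the quartiles lay at −0.101 and 0.106. Only *Prim1* and *Cdc6* were called, and 0 members were called lower. The *Mcm* genes, subunits of the replicative helicase, gave 0.51 for *Mcm2* (adjusted p = 0.10), 0.40 for *Mcm3* (0.25), 0.36 for *dpa* (0.27) and 0.32 for *Mcm5* (0.61). In GFP− cells 18 of the 20 were lower at t2 past the limits, against 10 of the 20 in GFP+ cells, where 12.1% and 10.2% of all genes were. The mean level of the list was 10.29 in GFP+ cells (arrays 10.13 to 10.43) and 9.52 in GFP− cells (9.44 to 9.56) at t2, against 10.86 (10.80 to 10.90) and 10.52 (10.46 to 10.58) at t1. GFP− arrays at t2 were thus the lowest of the 4 groups, with no overlap. Enrichment passed the limits for 14 members at t2, where 3.35% of all genes did, and for 2 at t1, where 2.5% did. The list of G1 and S phase switches had a median of 0.125 with 8 of 8 members above 0, and the mitosis list a median of 0.106 with 8 of 8 above 0, and neither had a called member. Under cyclic loess scaling these medians were 0.058 with 5 of 8 members above 0 and 0.034 with 6 of 8, and without GFP+ replicate 3 at t2 the first was 0.07 with 7 of 8.

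**Figure D3:**
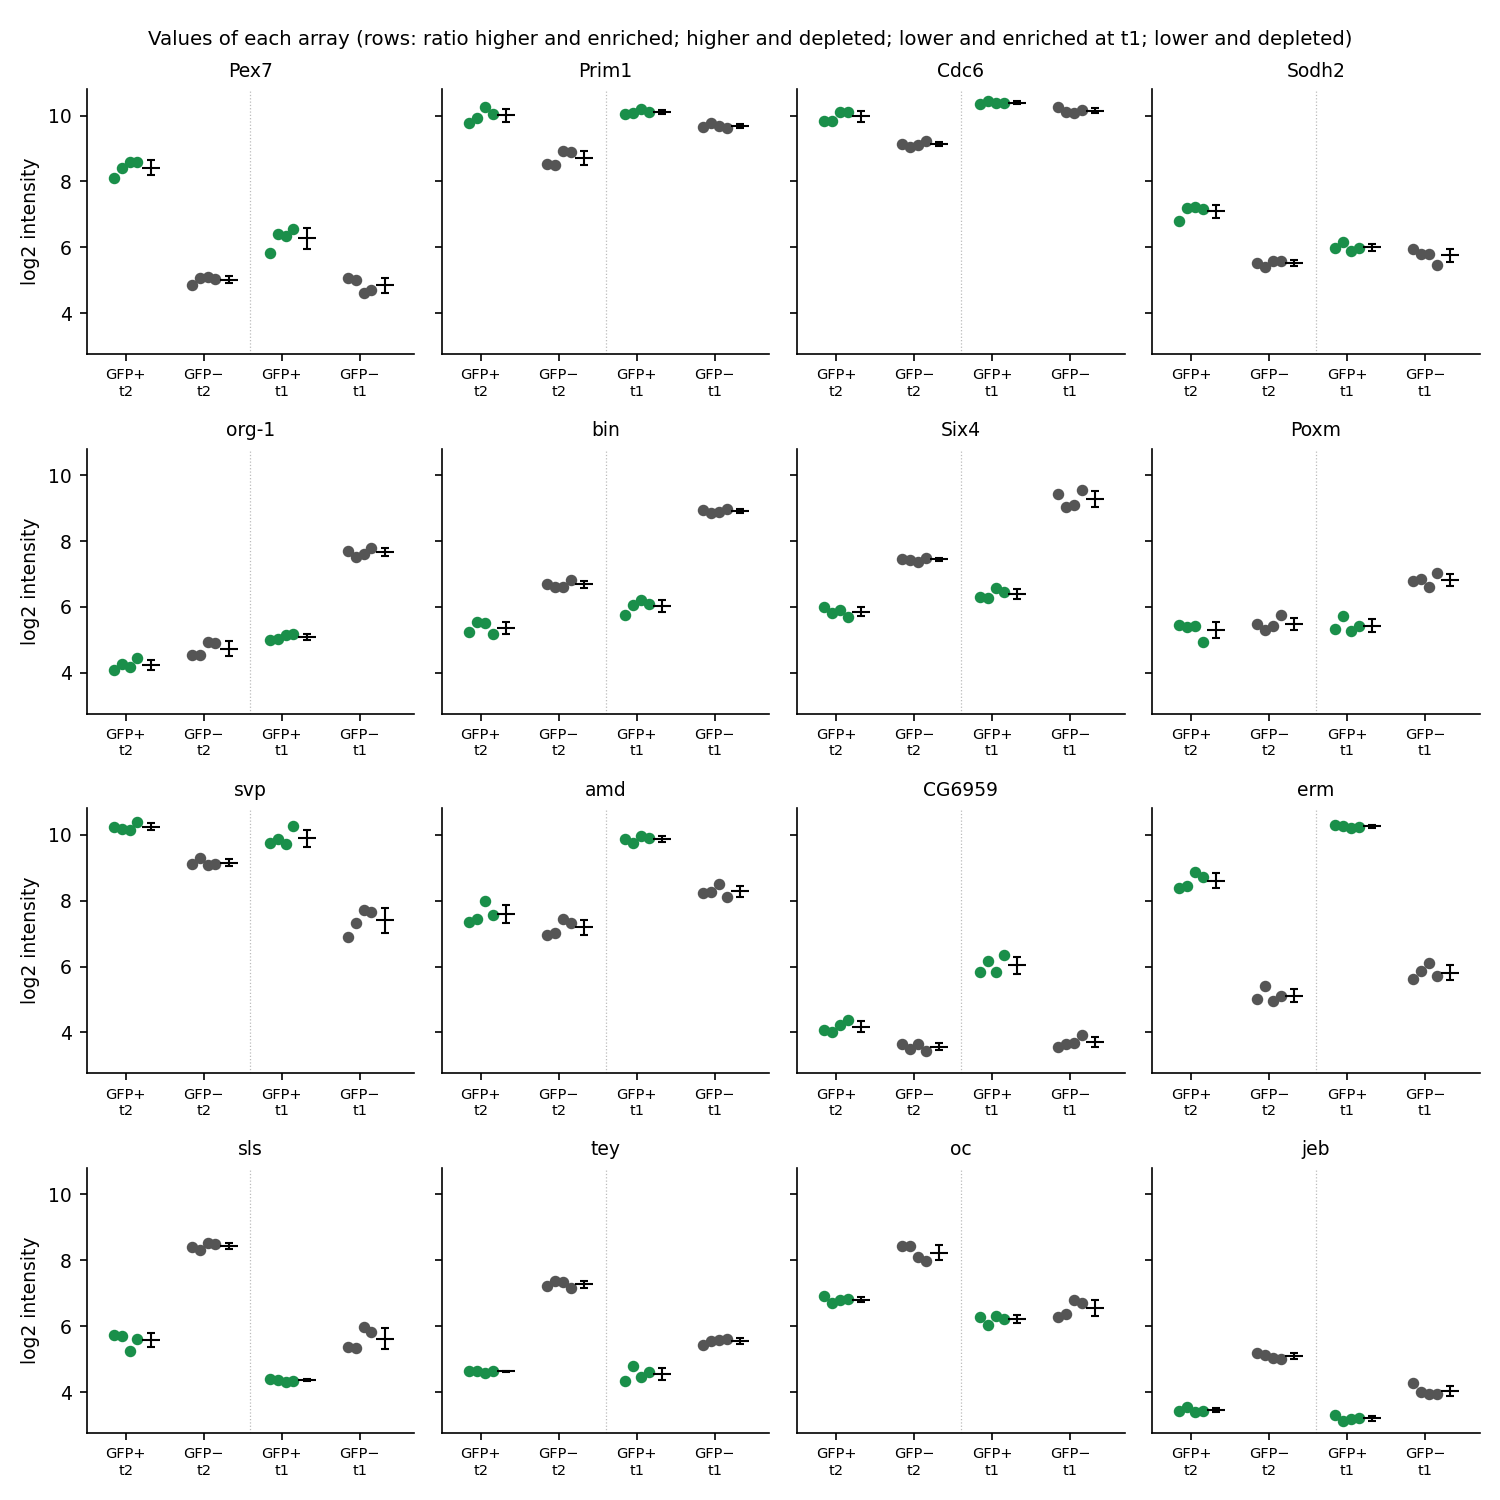
Log2 intensity on each of the 16 arrays for 16 called genes, 4 from each class, with GFP+ and GFP− cells at t2 to the left of GFP+ and GFP− cells at t1. Points are arrays, and the bars beside them are the mean ± SD of 4 arrays. For org-1 the GFP− arrays at t1 (7.51 to 7.80) stand above all 12 others.

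The 14 genes with a higher ratio that were still depleted at t2 changed mainly outside the GFP+ sort. The GFP− level was lower at t2 for 13 of the 14, and the GFP− change passed the limits for 11, with the GFP+ change passing for 3. Their median ratio was −0.52 at t2, against −1.48 at t1. All 14 were depleted past the limits at t1, where 4.89% of all genes were, and 6 at t2, where 5.75% were. The count at t1 follows from how the genes were grouped.

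Several of these genes encode transcription factors known from the mesoderm. *org-1*, a T-box factor of visceral and somatic muscle founders, had the largest change. It measured 4.09, 4.26, 4.19 and 4.45 in GFP+ cells at t2, against 4.55, 4.53, 4.95 and 4.89 in GFP− cells. At t1 the GFP+ arrays read 5.00, 5.02, 5.14 and 5.19, against 7.69, 7.51, 7.62 and 7.80 on the GFP− arrays. GFP− cells at t1 were the high group, and their mean was lower by 2.93 at t2, so that the depletion was 1.40-fold at t2, against 5.93-fold at t1 (change of ratio log2 2.09, SE 0.17, adjusted p = 1.7e-09). Its t2 means, 4.25 in GFP+ and 4.73 in GFP− cells, lay within or below the array medians of 4.72 to 4.84. A depletion at t2 could not be measured in full at such levels. *bin*, a forkhead factor of the visceral mesoderm, read 5.24, 5.53, 5.52 and 5.17 in GFP+ cells at t2, against 6.71, 6.59, 6.61 and 6.83 in GFP− cells. Its t1 values were 5.77, 6.05, 6.2 and 6.09 in GFP+ cells, against 8.94, 8.85, 8.88 and 8.97 in GFP− cells. No 2 of the 4 groups overlapped, and the change of ratio was 1.56 (SE 0.13, adjusted p = 6.8e-09). A brighter probe set of *bin* gave 0.86 (adjusted p = 0.22) and a dim one 0.35 (0.35), and neither was called. *org-1* and *bin* were also the genes with a higher ratio that passed when the change was tested against 1.5-fold rather than against 0.

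*Six4*, a homeodomain factor of mesoderm and gonad, and *Poxm*, a Pax factor of the somatic mesoderm, had the next largest changes. *Six4* read 6.0, 5.82, 5.92 and 5.68 in GFP+ cells at t2, against 7.46, 7.43, 7.37 and 7.5 in GFP− cells. At t1 its arrays read 6.30, 6.26, 6.56 and 6.46 in GFP+ cells, against 9.42, 9.02, 9.10 and 9.55 in GFP− cells, and the change of ratio was 1.30 (SE 0.22, adjusted p = 0.00094). The depletion of *Six4* remained 2.99-fold at t2, whereas that of *Poxm* ended within the spread of the arrays. *Poxm* read 5.46, 5.39, 5.41 and 4.95 in GFP+ cells at t2, against 5.48, 5.31, 5.41 and 5.74 in GFP− cells, and the groups overlapped. GFP− arrays at t1 read 6.79, 6.84, 6.60 and 7.04, all above the GFP+ arrays of that time at 5.33, 5.72, 5.28 and 5.41 (change of ratio 1.2, SE 0.16, adjusted p = 8.1e-05). A dimmer probe set of *Poxm* gave 0.24 (limma adjusted p = 0.63) and was not called.

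*CadN*, the neural cadherin, which is made in neurons and in mesoderm, was among the 3 genes that passed the limits in neither population alone. It read 5.63, 5.62, 5.88 and 5.60 in GFP+ cells at t2, against 7.77, 7.58, 7.28 and 7.48 in GFP− cells. The t1 arrays gave 5.17, 5.51, 5.35 and 5.40 in GFP+ cells, against 8.16, 7.95, 7.95 and 8.02 in GFP− cells. GFP− cells remained the high group, 3.59-fold above GFP+ cells at t2, and the change of ratio was 0.82 (SE 0.13, adjusted p = 0.00075). *VepD* was the only gene of the class whose GFP+ level alone passed the limits, at 8.10, 8.37, 8.32 and 8.35 in GFP+ cells at t2, against 6.86, 7.02, 7.32 and 7.22 at t1. Its GFP− arrays overlapped between the times, and the change of ratio was 0.92 (SE 0.18, adjusted p = 0.0067).

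For *CG30268*, as for *Poxm*, the groups overlapped at t2. It measured 3.34, 3.7, 3.66 and 3.44 in GFP+ cells at t2, against 3.91, 3.7, 3.58 and 4.02 in GFP− cells, close to the bottom of the scale, and only its GFP− arrays at t1 (4.76 to 5.19) stood apart. *bbg*, a PDZ domain protein, gave 0.96 (SE 0.15) and *CG7120* gave 1.12 (SE 0.23), the last still depleted past the limits at t2 with a ratio of −0.82. A dimmer probe set of each was not called, at 0.09 for *bbg* and −0.13 for *CG7120*. The other 5 genes, *Cyp310a1*, *CG7460*, *Hs6st*, *CG10663* and *stl*, had changes of ratio between 0.66 and 0.86. For 5 genes of the class the call was lost without some single array. Leaving out 1 array cost *Hs6st* the call in 14 of 16 cases, *CG7120* and *CG7460* in 13, *VepD* in 11 and *Cyp310a1* in 3, with a highest adjusted p of 0.0321.

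The early mesoderm list did not move as 1 group. It had a median change of ratio of 0.269 over 7 measured members, 5 of them above 0, with *bin* called and 0 called lower. Without GFP+ replicate 1 at t1 the median was 0.165 with 4 of 7 above 0, and without GFP− replicate 2 at t1 or at t2 it was 0.249 or 0.265 with 7 of 7 above 0. *twi*, the basic helix-loop-helix regulator of mesoderm, gave 0.27 (adjusted p = 0.85) and *htl*, the FGF receptor, gave −0.02 (0.99), whereas *sna* gave 0.78 (0.028) and *bap* gave 1.03 (0.067). The mean level of the list was 7.63 in GFP+ cells (arrays 7.5 to 7.73) and 9.79 in GFP− cells (9.72 to 9.92) at t2, against 7.65 (7.34 to 7.93) and 10.23 (10.16 to 10.29) at t1. GFP− cells were the high group at both times and lower at t2, and 6 of the 7 members were depleted from GFP+ cells past the limits at each time. The part of mesodermal cells in the changes of *org-1*, *bin*, *Six4* and *Poxm* was not tested.

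The 14 genes whose ratio was lower at t2 after an enrichment at t1 differed between the times in GFP+ cells, in GFP− cells or in both. GFP+ cells alone changed past the limits for 5 of them, GFP− cells alone for 4, both for 4 and neither for 1. The median ratio was 0.50 at t2, against 1.58 at t1. Of the 14, 10 were still above GFP− in their means at t2 and 4 were below. Enrichment passed the limits for 6 of the 14 at t2 and for 11 at t1, and 3 were depleted past the limits at t2.

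*erm*, a zinc finger factor of brain progenitors, kept the strongest lead of the 60 genes in spite of its loss. It measured 8.39, 8.45, 8.86 and 8.73 in GFP+ cells at t2, against 5.01, 5.40, 4.96 and 5.11 in GFP− cells. At t1 the values were 10.30, 10.27, 10.20 and 10.25 in GFP+ cells, against 5.61, 5.86, 6.10 and 5.70 in GFP− cells. Both populations were lower at t2 with no overlap, GFP+ cells by 1.65 and GFP− cells by 0.69, and the enrichment was 11.2-fold at t2, against 21.7-fold at t1 (change of ratio −0.95, SE 0.18, adjusted p = 0.0050). *CG6959* lost part of its lead through GFP+ cells alone, which read 4.07, 4.01, 4.22 and 4.38 at t2, against 5.83, 6.17, 5.83 and 6.35 at t1, while its GFP− arrays stayed between 3.45 and 3.92 (change of ratio −1.74, SE 0.33, adjusted p = 0.0041). Its enrichment was 1.52-fold at t2, against 5.08-fold at t1. *amd*, an enzyme of cuticle formation, read 7.35, 7.45, 7.98 and 7.57 in GFP+ cells at t2, against 9.86, 9.74, 9.96 and 9.91 at t1, and its ratio changed by −1.19 (SE 0.20, adjusted p = 0.0011). Its GFP− mean was also lower at t2, by 1.09, and GFP+ and GFP− arrays overlapped at t2. *CG11382* followed the same course, with a GFP+ mean lower by 1.95 and a GFP− mean lower by 0.79.

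In other genes of this class the GFP− cells caught up. *svp*, a COUP-type nuclear receptor of photoreceptors and other tissues, read 10.23, 10.19, 10.16 and 10.40 in GFP+ cells at t2, against 9.11, 9.31, 9.08 and 9.10 in GFP− cells. At t1 it read 9.74, 9.86, 9.71 and 10.26 in GFP+ cells, against 6.90, 7.31, 7.72 and 7.67 in GFP− cells. GFP+ arrays overlapped between the times, GFP− arrays were all higher at t2, and the ratio changed by −1.40 (SE 0.25, adjusted p = 0.0025). Its dimmer probe sets gave −0.65 and 0.42, neither called, so the *svp* change rests on its brightest probe set. *CG32447* had a GFP− mean 0.85 higher at t2 and a change of ratio of −1.26 (SE 0.20, adjusted p = 0.00038). *CG6329* rose in both populations, by 1.58 in GFP+ cells and by 2.74 in GFP− cells, and its ratio was −0.72 at t2, against 0.44 at t1 (change of ratio −1.16, SE 0.23, adjusted p = 0.0074).

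*toy*, a Pax6 factor of eye and head development, gave probe sets that disagreed. The probe set that was called read 9.0, 9.05, 8.98 and 8.93 in GFP+ cells at t2, against 9.41, 9.44, 9.38 and 9.24 in GFP− cells. Values at t1 were 9.41, 9.53, 9.37 and 9.36 in GFP+ cells, against 7.68, 7.75, 7.96 and 7.65 in GFP− cells. By this probe set GFP+ cells were above GFP− cells at t1 and below them at t2, with a change of ratio of −2.03 (SE 0.18, adjusted p = 1.5e-08). The other 2 probe sets of *toy* gave changes of 0.05 (SE 0.20, adjusted p = 0.98) and 0.04 (SE 0.24, adjusted p = 0.98), with ratios of 3.49 and 4.25 at t2, against 3.44 and 4.21 at t1. The loss of *toy* enrichment therefore holds for 1 of its 3 probe sets, and the cause of the difference was not tested.

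**Figure D4:**
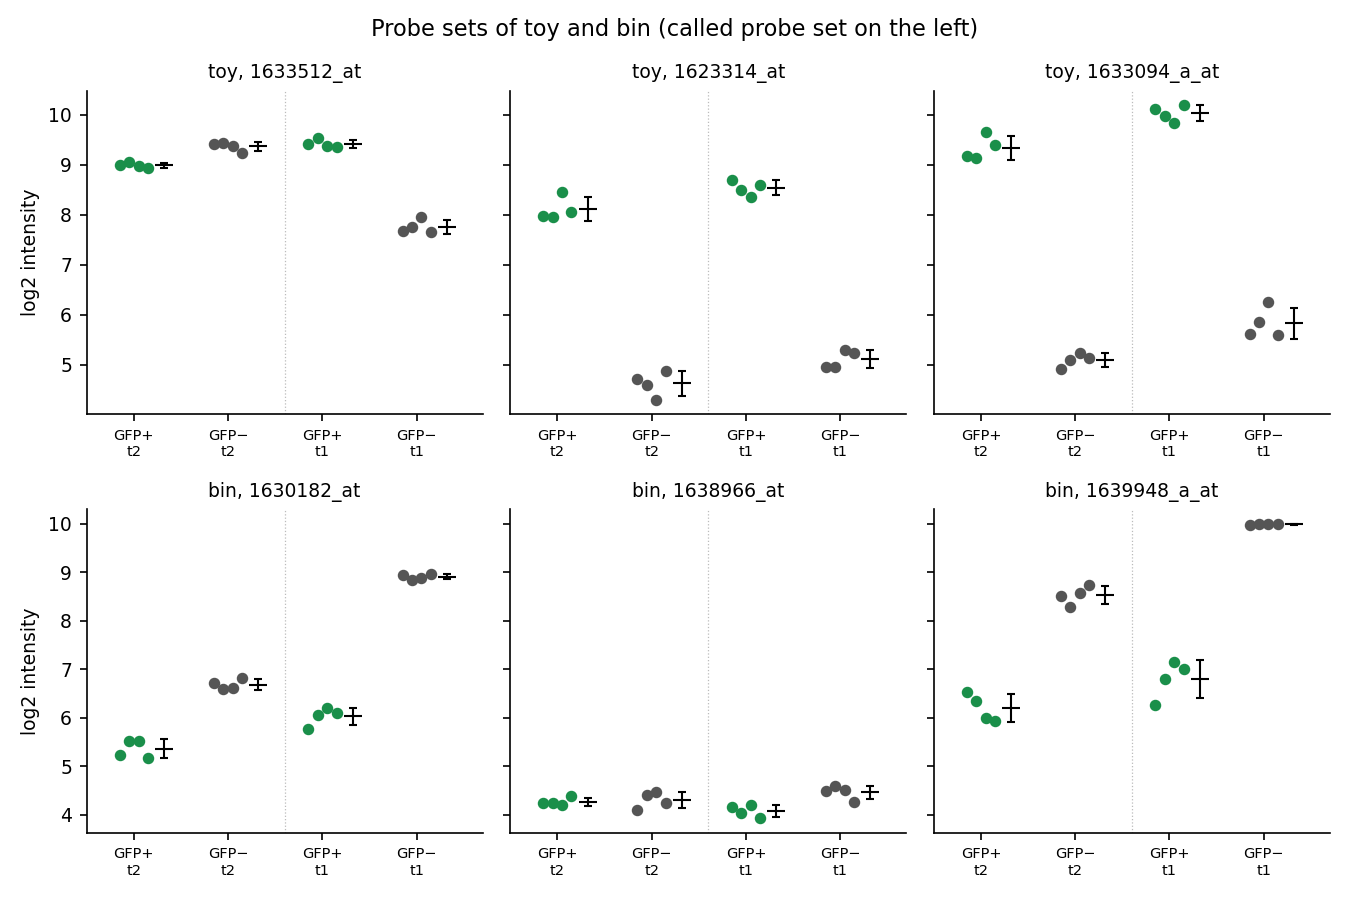
Log2 intensity on each of the 16 arrays for the 3 probe sets of toy and the 3 of bin, with GFP+ and GFP− cells at t2 to the left of the same cells at t1 and the mean ± SD of 4 arrays beside the points. For toy only the called probe set crosses between the times, and for bin 2 of the 3 probe sets show GFP− arrays lower at t2.

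The other 6 genes of the class had changes of ratio between −0.93 and −0.65. *Poxn*, a Pax factor that sets the type of external sense organs, was among them, at 6.74, 6.87, 6.94 and 6.72 in GFP+ cells at t2, against 7.39, 7.56, 7.40 and 7.34 in GFP− cells. At t1 the GFP+ arrays read 7.71, 7.73, 7.77 and 7.76, against 7.11, 7.47, 7.62 and 7.56 on the GFP− arrays. GFP+ arrays lay above GFP− arrays at t1 and below them at t2, with GFP− arrays overlapping between the times (change of ratio −0.91, SE 0.13, adjusted p = 0.00027). *CG42342* also ended below GFP−, with a ratio of −0.92 at t2, from a ratio at t1 of only 0.02 that did not pass the test. Calls in this class were lost without some single array for 5 genes: *CG6329* in 11 of 16 cases, *peg* in 10, *CG6959* and *erm* in 9 and *Ir60d* in 3, with a highest adjusted p of 0.0273.

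Most members of the lists around these genes leaned the same way, with few calls. The brain and optic progenitor list had a median change of ratio of −0.592 with 7 of 8 members below 0, and 2 called lower, *erm* and *oc*. Of these, *oc* had no lead to lose: its ratio at t1 was −0.338, which did not pass the limits. Its members *tll*, *hbn* and *Rx*, all transcription factors of the head, gave −0.51 (adjusted p = 0.58), −0.58 (0.071) and −0.60 (0.026), and *scro*, a homeodomain factor, gave 0.77 (0.086). For the retinal determination list the median was −0.387, with 2 of 8 members called lower, *toy* and *svp*, and 2 above 0. Each of these calls rests on a single probe set of the gene. The members above 0 were *ey*, the second Pax6 gene, at 0.76 (adjusted p = 0.077), and *eya*, at 0.65 (0.017), while *so* gave −0.51 (0.34) and *Optix* gave −0.62 (0.10). The head appendage list had 10 of 10 members below 0, with a median of −0.496 and 0 called in either direction. Its members *ss*, *Dll*, *dac* and *al* gave −0.83 (adjusted p = 0.25), −0.75 (0.056), −0.26 (0.85) and −0.17 (0.90), and 6 of the 10 had an unadjusted p under 0.05, as 4.74% of all genes had in that direction. All 10 were enriched past the limits at both times. For this list the mean level was 9.17 in GFP+ cells (arrays 9.10 to 9.28) and 6.97 in GFP− cells (6.85 to 7.09) at t2, against 9.10 (9.01 to 9.33) and 6.34 (6.22 to 6.48) at t1, so the GFP+ arrays overlapped between the times and the GFP− arrays were all higher at t2.

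The 22 genes that were already depleted at t1, by their group means, and more so at t2 form the largest class. Most of them were higher in GFP− cells at t2. The GFP− level was higher at t2 for 19 of the 22, and the change passed the limits in GFP− cells alone for 14, in GFP+ cells alone for 2 and in both for 6. The median change of level was 1.24 in GFP− cells and 0.14 in GFP+ cells. Their median ratio was −1.82 at t2, against −0.60 at t1. On the arrays, GFP+ cells were below GFP− cells without overlap at t2 for all 22, and the depletion passed the limits for 22 at t2 and for 11 at t1. The counts at t2 follow from how the genes were grouped. At t1 the GFP+ and GFP− arrays overlapped for 7 of the 22.

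Some of these genes belong to muscle. *sls*, the titin-like protein of the sarcomere, read 5.73, 5.69, 5.26 and 5.62 in GFP+ cells at t2, against 8.40, 8.32, 8.51 and 8.50 in GFP− cells. At t1 it read 4.41, 4.38, 4.32 and 4.34 in GFP+ cells, against 5.36, 5.34, 5.99 and 5.81 in GFP− cells. It rose in both populations, by 1.21 in GFP+ cells and by 2.81 in GFP− cells, and the depletion was 7.25-fold at t2, against 2.40-fold at t1 (change of ratio −1.59, SE 0.23, adjusted p = 0.00021). A second probe set of *sls* was also called, at −1.61, and a dim one was not, at −0.12. *tey*, a nuclear factor of ventral muscle, read 4.64, 4.64, 4.59 and 4.64 in GFP+ cells at t2, against 7.21, 7.37, 7.35 and 7.16 in GFP− cells. For t1 the arrays gave 4.34, 4.78, 4.45 and 4.61 in GFP+ cells, against 5.43, 5.56, 5.59 and 5.62 in GFP− cells. GFP+ arrays overlapped between the times and GFP− arrays did not (change of ratio −1.64, SE 0.23, adjusted p = 0.00011). *Con*, an adhesion protein of muscles and motor neurons, rose by 1.18 in GFP+ cells and by 2.48 in GFP− cells, with a change of ratio of −1.30 (SE 0.27, adjusted p = 0.0088). At t1 the GFP+ means of *sls* (4.36), *tey* (4.545) and *Con* (3.956) lay below the array medians of 4.72 to 4.84. A depletion at t1 could not be measured in full at such levels, and the change of ratio shares this limit.

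*jeb*, which encodes a ligand of the receptor Alk, read 3.44, 3.54, 3.41 and 3.43 in GFP+ cells at t2, against 5.20, 5.12, 5.03 and 5.01 in GFP− cells. At t1 it read 3.29, 3.13, 3.19 and 3.20 in GFP+ cells, against 4.27, 4.00, 3.94 and 3.93 in GFP− cells, and the change of ratio was −0.80 (SE 0.14, adjusted p = 0.0011). GFP+ cells thus stayed near the bottom of the scale. *oc*, the head homeodomain factor also called orthodenticle, read 6.91, 6.70, 6.80 and 6.81 in GFP+ cells at t2, against 8.42, 8.43, 8.11 and 7.98 in GFP− cells. At t1 its groups overlapped, at 6.28, 6.04, 6.30 and 6.21 in GFP+ cells, against 6.29, 6.38, 6.80 and 6.71 in GFP− cells (change of ratio −1.09, SE 0.19, adjusted p = 0.0012).

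*GstE6*, a glutathione S-transferase, had the largest change of the class. It read 4.86, 5.13, 4.71 and 4.87 in GFP+ cells at t2, against 7.04, 7.68, 7.19 and 7.19 in GFP− cells. The values of t1 were 4.57, 4.5, 4.67 and 5.77 in GFP+ cells, against 5.05, 5.27, 5.47 and 5.85 in GFP− cells, where GFP+ replicate 4 stood apart and the groups overlapped. The change of ratio was −1.85 (SE 0.34, adjusted p = 0.0029). *CG5973* (−1.77, SE 0.34), *CG9380* (−1.40, SE 0.21), *CG15209* (−1.32, SE 0.24) and *Arpc3B*, an Arp2/3 complex subunit (−1.31, SE 0.24), followed. In each of them the GFP− arrays were all higher at t2. The other 12 genes had changes of ratio between −1.27 and −0.75, among them *Cyp305a1*, *r-l* and *sn*, the 3 genes of the class whose GFP− mean was lower at t2. In *Cyp305a1*, a cytochrome P450, both populations fell, GFP+ cells by 2.12 and GFP− cells by 0.85.

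In this class 10 genes lost the call without some single array. They were *r-l* in 15 of 16 cases, *Con* and *ewg* in 14, *CG10927* in 12, *CG5973* in 8, *Arpc3B*, *pigs* and *sn* in 5, and *GstE6* and *CG15209* in 3, with a highest adjusted p of 0.0321. For *GstE6*, *CG15209* and most of the others the arrays concerned included GFP− replicate 1 at t1 and GFP− replicate 2 at t2. Without either of those arrays the class held 13 genes, and without GFP+ replicate 3 at t2 it held 12.

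The muscle list leaned lower with *sls*. It had a median change of ratio of −0.601 over 7 measured members, 6 of them below 0, with *sls* called and 0 called higher. *sns*, *kirre*, *rols* and *blow*, which act in myoblast fusion, gave −0.60 (adjusted p = 0.15), −0.89 (0.022), −0.43 (0.63) and −0.93 (0.062). In GFP− cells 5 of the 7 were higher at t2 past the limits, against 1 of the 7 in GFP+ cells, where 5.48% and 4.07% of all genes were. The mean level was 5.03 in GFP+ cells (arrays 4.91 to 5.14) and 6.46 in GFP− cells (6.43 to 6.53) at t2, against 4.61 (4.48 to 4.68) and 5.38 (5.33 to 5.44) at t1. GFP− cells at t2 were the high group. The GFP+ mean at t1 lay below the array medians, where a depletion could not be measured in full. Muscle markers thus were higher in GFP− cells beside *sls*, *tey* and *Con*, and their part in those changes was not tested.

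Lists of sensory precursor regulators and of cilium genes held no call. Among 11 measured regulators of sensory precursors, 0 were called and the median change of ratio was −0.192, or −0.115 without GFP+ replicate 1 at t2. Of its members, *cato* gave −0.19 (adjusted p = 0.90), *amos* −0.46 (0.53), *sens* −0.38 (0.73) and *nvy* −0.29 (0.75), while 8 of the 11 were enriched past the limits at each time. The list of basal body, transition zone and rootlet genes, parts of the sensory cilium, had 5 of 5 members above 0 and a median of 0.602, with 0 called. Its members *dila*, *Root*, *Cby* and *B9d1* gave 0.74 (SE 0.37, adjusted p = 0.59), 0.53 (SE 0.34, 0.73), 0.60 (SE 0.23, 0.36) and 0.21 (SE 0.21, 0.87). Of the 5, 2 had an unadjusted p under 0.05, as 5.27% of all genes had in that direction. Genes of the Enhancer of split complex, targets of Notch, had 10 of 10 members below 0 and a median of −0.332, with 0 called and 0 with an unadjusted p under 0.05. Adjacent genes of this complex are regulated together and are not separate samples. The pan-neuronal list had a median of 0.019 that turned below 0 without some single arrays, with *CadN* called higher and *jeb* called lower. Both genes were depleted in GFP+ cells past the limits at each time, and *CadN* is also made in mesoderm. Their calls cannot be assigned to neurons. The haemocyte list, blood cell markers, had a median of −0.221 with 3 of 11 members above 0 and 0 called, and its median was −0.359 without GFP+ replicate 1 at t1 and −0.141 without GFP+ replicate 3 at t2. Over all 40 lists, 10 called genes were members, all of them named above.

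**Figure D5:**
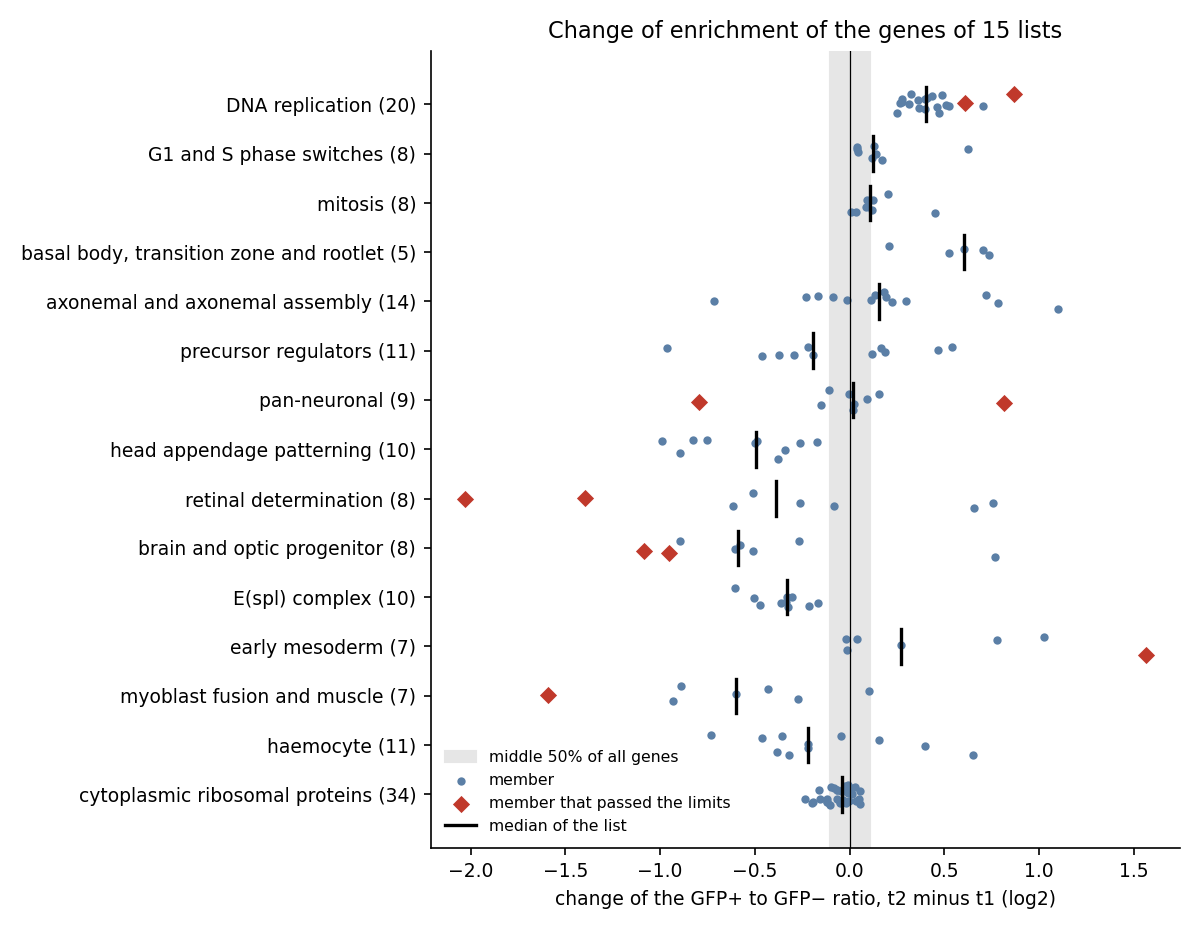
Change of ratio between t1 and t2 (log2) for each measured member of selected gene lists, with the median of each list, called genes as filled diamonds and a grey band between the quartiles of all genes. The 20 DNA replication genes lie above 0 and the 10 head appendage and 10 Enhancer of split genes lie below 0, against a median of 0.002 over all genes.

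Other arrays of the series gave a reading of these genes that the grouping did not use. In *ato* mutant embryos at t1, where GFP+ cells were sorted with the same reporter, 6.12% of all genes were higher and 8.4% lower in GFP+ than in GFP− cells. Of the 22 genes already depleted at t1, 16 were lower in mutant GFP+ cells past the limits and 0 higher, and all 22 lay below 0. Of the 14 genes still depleted at t2, 12 were lower and 1 higher. Of the 14 genes enriched at t1, 11 were higher and 1 lower. Of the 10 genes enriched at t2, 4 were higher and 1 lower, and the 1 lower was *Sodh2*, at −1.55 in mutant cells (limma adjusted p = 1.4e-10). *ths* was 1.98 higher in mutant GFP+ than in mutant GFP− cells (adjusted p = 1.8e-16), beside −0.08 in wild-type cells of the same age. The mutant arrays share the reporter and the age of the wild-type t1 arrays, whose values helped to form the classes. These counts are therefore no independent support for the classes, and the shares over all genes are no matched background. No mutant cells were profiled at t2, so the change of ratio has no counterpart there.

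At t3, 1 h later, the median ratio of each class lay nearer 0 than at t2. In wild-type embryos 3.1% of all genes were higher and 4.45% lower in GFP+ than in GFP− cells at that time. The 22 genes already depleted at t1 had a median ratio of −0.60 (t1), −1.82 (t2) and −0.66 (t3), and 10 of them were depleted past the limits at t3 with 21 below 0. Genes still depleted at t2 had medians of −1.48, −0.52 and −0.27 over the same times. For genes enriched at t1 the medians were 1.58, 0.50 and 0.16, with 1 of 14 enriched past the limits at t3, and for genes enriched at t2 they were 0.24, 1.11 and −0.03, with 1 of 10. That 1 gene was *Sodh2*, at 0.86 (adjusted p = 9.9e-05). *Pex7* stood at 0.65 (adjusted p = 0.057) and *org-1* at −0.23 (adjusted p = 0.28). The t1 and t2 values chose the genes, so only the t3 values are separate, and the difference between t3 and t2 was not tested. GFP− cells at t3 had 3 arrays. The ratio of *ato* itself was 3.64 (t1), 3.80 (t2) and 1.69 (t3), and 3 of the 7 arrays of t3 had limma array weights, which are lower for arrays that vary more about their group, of 0.418 to 0.46, below those of every t1 and t2 array. The part of these features in the t3 values was not tested.

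Membership near the limits depended on small margins. Just inside the limit on the adjusted p were *CG7120* and *ewg* (both 0.0098) and *CG7460* (0.0090), and just outside it were *slou* (change of ratio −1.12, adjusted p = 0.0102), *CG13907* (−1.75, 0.0107) and *caup* (0.85, 0.0107). The border between classes ran close to *stl* and *Cyp310a1*, with ratios at t2 of −0.001 and −0.01, and to *C15*, a homeodomain factor, at 0.016. At t1 it ran close to *CG42342* at 0.02 and *ewg* at −0.05. For 8 of the 60 genes the highest group mean was under 6 on the log2 scale, which is where dim probe sets lie. Of 27 further probe sets that name the called genes, 22 changed with the same sign as the one used and 3 were called themselves, and the 5 of opposite sign belong to 4 genes, *toy* and *svp* among them.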

How the data were processed

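RNA of sorted wild-type GFP+ and GFP− cells at t2 and t1 was measured on 16 arrays. The deposited values are log2 intensities, which the authors made by RMA with quantile normalisation in AffyPLM. No raw intensities were used, so background correction and normalisation are theirs. The labels name 1 round of amplification and the methods 2, which may affect dim probe sets. Array depth has no count, and precision is limited by 4 arrays a group. Column medians lay between 4.72 and 4.84.

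Control probe sets were left out, and 18769 were fitted as 8 group means over all 31 arrays in limma 3.58.1 (R 4.3.3), with Benjamini-Hochberg adjustment over all of them. The change of ratio was a difference of differences, and standard errors (SE) are limma's. Limits were 1.5-fold and an adjusted p of at most 0.01, after the study's methods. The model had 23 residual degrees of freedom. The fit was tested on simulated data. Gene names came from the platform's annotation and a RefSeq gene table. Passing probe sets counted for a gene only where they name no other, and a gene's value is that of the brightest called probe set, or of the brightest one where none was called.

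Genes named are *ato*, the 8 largest changes in each of the 4 classes, all called members of the gene lists and up to 4 further members of a list described. Others were named after their values were seen. The members and the 40 lists (307 of 364 entries measured) were chosen with earlier results of these data known. Alternatives were other scalings, variance models, samples, thresholds and leaving out each array. Sequences and coordinates were not used here.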

Additional observations from a re-analysis of the deposited data

Results flagged for a closer look

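The change of enrichment between t1 and t2 differed from 0 for 24 genes with a higher ratio and for 36 with a lower ratio at t2, each by the limma test of the difference of differences.

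Among the 244 sets of 4 arrays examined, for *ato* and the called genes, 13 held an array far from the other 3, where chance at 1 in 20 would give 12.2. In GFP+ cells at t2 these were *Sodh2* at 6.80 in replicate 1, *Poxm* at 4.95 and *CG7120* at 5.07 in replicate 4, and *CadN* at 5.88 and *tey* at 4.59 in replicate 3. In GFP− cells at t2 they were *stl* at 4.67 in replicate 4 and *svp* at 9.31 in replicate 2. In GFP+ cells at t1 they were *GstE6* at 5.77 and *CG5973* at 4.69 in replicate 4, and *CG42327* at 6.72 and *Con* at 3.77 in replicate 3. In GFP− cells at t1 they were *CG30268* at 4.76 in replicate 2 and *ND-51L2* at 6.67 in replicate 4. The gap was largest for *GstE6*, at 1.10 on the log2 scale. Without that array its change of ratio was −1.55, against −1.85 with all arrays. That was the weakest value in the range of −2.0 to −1.55 over all arrays left out.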

How the results depend on the processing

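Counts of genes depended on the threshold tested and on the estimate of the spread. With only the 16 arrays compared, 64 genes had a higher and 76 a lower ratio, and the classes held 35 (enriched at t2), 29 (still depleted at t2), 23 (enriched at t1) and 53 (already depleted at t1). Array weights gave 53 and 79, with 32 enriched at t2, 29 enriched at t1 and 50 already depleted at t1, and all 60 genes were shared with both fits. The replicate block gave 56 and 79 (34, 22, 31 and 48 by class), sharing 58 genes. Same-numbered arrays correlated at 0.068 to 0.327 at t1 and −0.019 to 0.065 at t2, with 4 of 4 and 3 of 4 matching their own number best. The methods state that GFP+ and GFP− cells were both collected in each sorting run, so same-numbered arrays may be pairs. The main fit did not pair them, and the replicate block did. An adjusted p of at most 0.05 gave 47 and 70 (26, 25 and 45 in the same 3 classes). Testing against 1.5-fold left 2 and 1 (0, 2, 1 and 0 by class). With a margin of 1.5-fold between classes, 6 genes were still depleted at t2 and 11 already depleted at t1. Leaving out each array in turn gave 16 to 24 genes higher and 23 to 41 lower, and 7 to 13, 9 to 13, 9 to 16 and 12 to 25 by class. The lower count was 23 without GFP+ replicate 3 at t2. The class still depleted at t2 held 9 without that array or GFP− replicate 3 or 4 at t2, and the class enriched at t1 held 9 without GFP+ replicate 2 or 4 at t1.

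Cyclic loess (21 and 49), ribosomal centring (20 and 38), trended and robust variances (23 and 35), no dim probe sets (24 and 43) and 1 probe set per gene (23 and 33) stayed within 1.5 times, with 57, 53 and 53 of the 60 genes shared in the first 3. No called gene changed sign, and 36 of the 60 kept the call in these fits and whichever array was left out; the test against 1.5-fold is not counted. The medians of 13 lists, rerun after the values were seen, kept their direction except that of the pan-neuronal list, which ranged between −0.031 and 0.053 as single arrays were left out and was −0.031 without GFP+ replicate 1 at t1. Near the bottom of the scale a depletion cannot be measured in full.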

Other observations

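Of 71 probe sets called, 8 name no gene or several in the platform's annotation and were not counted. The largest change of any probe set was among them: 1625897_s_at, which names no gene, averaged 11.1 in GFP+ cells and 7.21 in GFP− cells at t2, against 9.29 and 9.36 at t1 (change of ratio 3.95, SE 0.42, limma adjusted p = 9.8e-07). It was higher at t2 in GFP+ cells by 1.80, and in GFP− cells it fell by 2.15. The probe set 1634413_at turned to enrichment, with a ratio of 0.75 at t2, against −1.14 at t1, and 1626267_at changed by −2.24, with a ratio of −2.53 at t2, against −0.28 at t1.

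A pair of Wnt ligands also had a higher ratio at t2, by probe sets that only the study's tables tie to a gene. *Wnt2* averaged 9.66 in GFP+ cells and 8.31 in GFP− cells at t2, against 9.76 and 10.2 at t1 (change of ratio 1.74, SE 0.22, adjusted p = 1.6e-05). *wg*, the segment polarity ligand, averaged 10.7 in GFP+ cells and 9.31 in GFP− cells at t2, against 10.7 and 10.2 at t1 (change of ratio 0.78, SE 0.14, adjusted p = 0.0026). For both, the GFP− level was the one that was lower at t2, by 1.84 for *Wnt2* and by 0.87 for *wg*. A probe set shared by *Cyp12d1-d* and *Cyp12d1-p*, near-identical cytochrome P450 genes, changed by −1.24.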
